A study of Mus musculus with 6 samples.

Results

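The colony-stimulating factors and their receptors were followed in Raw264.7 macrophages after knockdown of *Etv5*. The genes were chosen by symbol: the ligand genes *Csf1*, *Csf2* and *Csf3* and the receptor genes *Csf1r*, *Csf2ra*, *Csf2rb*, *Csf2rb2* and *Csf3r*. All 8 had a value among the 24786 gene symbols measured. Raw264.7 is a mouse macrophage line established from a tumor that Abelson leukemia virus induced. Its labels give strain C57BL/6 and postnatal day 21 for every sample. Both groups were infected with a lentivirus in the presence of the transfection reagent Lipofectamine 3000. The virus carried a negative control shRNA (sh-NC, genotype labelled control) or an shRNA against *Etv5* (sh-*Etv5*), an ETS-family transcription factor. Polyadenylated RNA was sequenced in 3 libraries per group, and the protocol in the labels speaks of 24 or 48 h after infection without saying which applied to the sequenced cells. The study itself calls the sequenced cells stably transfected. Its methods describe puromycin selection of infected cells and list several *Etv5* hairpins, and do not name the one sequenced here. No source used here says whether libraries within a group trace to separate infections or cultures, so the p-values measure the spread between these libraries, which may be technical.

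Colony-stimulating factors are secreted proteins that keep myeloid cells alive and drive their growth and maturation. M-CSF, the product of *Csf1*, binds a receptor tyrosine kinase, whereas GM-CSF (*Csf2*) and G-CSF (*Csf3*) bind cytokine receptors without a kinase of their own, which signal through JAK and STAT proteins. Macrophages depend on the M-CSF receptor for survival, and activated macrophages are a known source of GM-CSF and G-CSF. Messenger RNAs of such cytokines often carry AU-rich elements, runs of the pentamer ATTTA in the 3′ untranslated region (UTR), which are known to bind proteins that control mRNA decay.

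The messages of *Csf2* and *Csf3* were denser in this pentamer than those of every receptor, whereas that of *Csf1* was not. The densest 30-base stretches of the ligands' 3′ UTRs are shown. They were read from GRCm38 with the GENCODE M21 annotation, in the direction of the transcript, and capitals mark ATTTA. The *Csf1* stretch is at chr3:107741109-107741138 (minus strand, 2021 to 2050 bases after the stop codon). The *Csf2* stretch is at chr11:54247327-54247356 (minus strand, 232 to 261 bases after the stop codon). The *Csf3* stretch is at chr11:98702984-98703013 (plus strand, 24 to 53 bases after the stop codon).
Csf1: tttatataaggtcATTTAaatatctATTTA
Csf2: tttaaatATTTATTTATTTATTTATTTAtt
Csf3: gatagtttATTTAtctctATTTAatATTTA
The *Csf2* window held 5 overlapping pentamers, the *Csf3* window held 3 and the *Csf1* window held 2. Over its whole 3′ UTR of 317 bases, *Csf2* had 9 ATTTA pentamers (28.4 per kb) and 4 copies of the longer TTATTTATT. A density this high was reached by 0.0621% of the 19336 measured genes with a 3′ UTR of at least 50 bases. *Csf3* had 6 in 669 bases (8.97 per kb), a density reached by 1.72% of these genes. *Csf1* had 4 in 2111 bases (1.89 per kb), against a median of 1.24 per kb, and neither *Csf1* nor *Csf3* had the longer TTATTTATT, which 7.25% of genes hold. Among the receptors, *Csf1r* had 2 pentamers in 654 bases (3.06 per kb, denser than *Csf1*) and the other 4 had 0. Of all these genes, 64.6% had at least 1. A pentamer is a match of letters and not a measured site of protein binding.

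**Figure D1:**
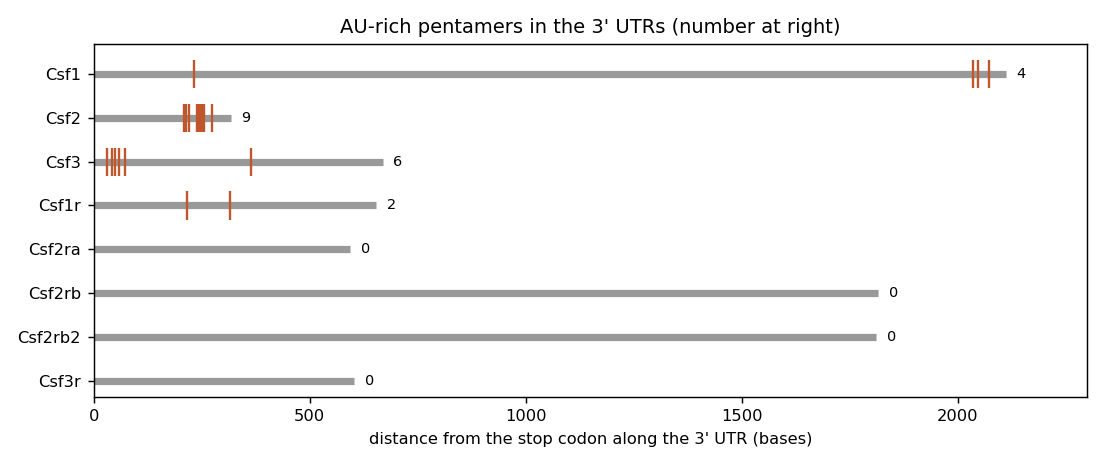
Position of each ATTTA pentamer (red line) along the annotated 3′ UTR (grey bar, bases from the stop codon) of the 8 genes, with the number of pentamers at the right. *Csf2* carries 9 in the shortest of the 8 UTRs, *Csf3* carries 6, 5 of them near the stop codon, and 4 of the 5 receptors carry 0.

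Values are RPKM, in which reads are divided by gene length and by the mapped reads of the library, so that levels can be compared between genes. Differences were tested with limma on log2(RPKM + 1) across the 10738 genes with at least 1 RPKM in at least 3 of the 6 libraries, and a Benjamini-Hochberg adjusted p under 0.05 was called. The log2 fold changes below are on that scale, which understates the change of genes with low values. *Etv5* itself measured 9.49 ± 0.367 RPKM in sh-NC and 5.13 ± 0.196 RPKM in sh-*Etv5* (SD, n = 3 each; log2 fold change -0.78, SE 0.0565, limma adjusted p = 2.74e-07). All 3 sh-*Etv5* libraries lay below all 3 sh-NC libraries. The number of reads behind the values is unknown, so no interval for counting error is given.

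*Csf3* had the largest change of the family. It encodes G-CSF, the cytokine that drives neutrophil production, and lies at chr11:98701263-98703629 (plus strand). Its level was 0.0356, 0.00916 and 0 RPKM in sh-NC and 119, 119 and 123 RPKM in sh-*Etv5*. The sh-NC libraries were thus all near 0, with 1 of them listed at 0, and the sh-*Etv5* libraries lay close together at 121 ± 2.21 RPKM (SD, n = 3). The log2 fold change was 6.90 (SE 0.0481, limma adjusted p = 2.69e-15), the 4th highest of all genes tested. In the order of levels of the tested genes, *Csf3* stood at place 10724 in sh-NC and at place 423 in sh-*Etv5*. RNA of a bulk culture cannot tell more RNA per cell from more cells that hold it, and this applies to every value given here.

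*Csf2* encodes GM-CSF and lies at chr11:54247271-54249667 (minus strand). It measured 0.173, 0.181 and 0.233 RPKM in sh-NC and 6.80, 7.14 and 8.46 RPKM in sh-*Etv5*. The sh-NC libraries were all far below 1 RPKM and the groups did not overlap. The means were 0.196 ± 0.0328 and 7.47 ± 0.881 RPKM (SD, n = 3 each), a ratio of 38.2. The log2 fold change was 2.82 (SE 0.0862, limma adjusted p = 2.68e-10), and with a pseudocount of 0.01 in place of 1 it was 5.19. The 3′ end of *Csf2* shares exon sequence with the antisense gene *Gm12223*, which had no value. Of the 50-base windows over all annotated *Csf2* transcripts, 6.39% also occur in *Gm12223*. The library kit named in the methods does not mark strand, so reads of the pair could not be told apart. *Csf2* and *Csf3* entered the test only through the sh-*Etv5* libraries, so that a call for them followed in part from the filter.

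*Csf1* stayed low in both groups. It encodes M-CSF and lies at chr3:107741048-107760469 (minus strand). It measured 0.711, 0.626 and 0.677 RPKM in sh-NC and 1.06, 0.863 and 0.867 RPKM in sh-*Etv5*. The sh-*Etv5* libraries were all higher, and only 1 of the 6 libraries exceeded 1 RPKM, so *Csf1* was under the filter and was not part of the test. Its means were 0.672 ± 0.0427 and 0.930 ± 0.112 RPKM (SD, n = 3 each), a ratio of 1.38, and the exact permutation test gave p = 0.1 (two-sided), the smallest value that 3 against 3 allows. Without a filter, its log2 fold change was 0.21 (SE 0.0519, limma adjusted p = 0.0219), in a fit that called 47.8% of the 17831 genes it tested. That call was lost with quantile normalization (0.07, limma adjusted p = 0.384), with smaller pseudocounts, and without sh-NC replicate 2 (limma adjusted p = 0.0740) or sh-NC replicate 3 (0.0646).

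The receptor for M-CSF fell. *Csf1r* encodes the tyrosine kinase that binds M-CSF and IL-34 and lies at chr18:61100598-61132149 (plus strand). It measured 433, 424 and 428 RPKM in sh-NC and 244, 250 and 236 RPKM in sh-*Etv5*. The groups were far apart relative to their spread, with means of 428 ± 4.56 and 244 ± 6.72 RPKM (SD, n = 3 each). *Csf1r* decreased by 43.2%, with a log2 fold change of -0.81 (SE 0.0321, limma adjusted p = 1.90e-09). It remained the most abundant of the 8 genes, at place 75 in the order of levels in sh-NC and at place 171 in sh-*Etv5*. At its 3′ end it overlaps *Hmgxb3* on the opposite strand, and 14.3% of the 50-base windows over all its annotated transcripts occur there as well. *Hmgxb3* moved the other way, from 10.6 ± 0.601 to 13.4 ± 0.332 RPKM (log2 fold change 0.32, limma adjusted p = 0.000239).

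The binding chain and the signalling chain of the GM-CSF receptor, *Csf2ra* and *Csf2rb*, moved apart. *Csf2ra* encodes the alpha chain, which binds GM-CSF, and lies at chr19:61223957-61228429 (minus strand). It measured 17.3, 14.7 and 16.8 RPKM in sh-NC and 28.9, 28.4 and 27.8 RPKM in sh-*Etv5*. Every sh-*Etv5* library was higher, and the means were 16.3 ± 1.36 and 28.4 ± 0.590 RPKM (SD, n = 3 each), a ratio of 1.74. The log2 fold change was 0.77 (SE 0.0569, limma adjusted p = 3.15e-07).

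*Csf2rb* encodes the common beta chain, which GM-CSF, IL-3 and IL-5 receptors share for signalling, and lies at chr15:78325752-78353847 (plus strand). It measured 7.17, 7.32 and 7.32 RPKM in sh-NC and 5.53, 5.91 and 4.87 RPKM in sh-*Etv5*. The groups did not overlap, and the level fell by 25.2%, from 7.27 ± 0.0893 to 5.44 ± 0.529 RPKM (SD, n = 3 each). The log2 fold change was -0.36 (SE 0.0678, limma adjusted p = 0.000522).

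*Csf2rb2* encodes the mouse beta chain that serves the IL-3 receptor and lies at chr15:78282507-78305721 (minus strand), next to *Csf2rb*. It measured 1.87, 2.18 and 2.24 RPKM in sh-NC and 1.65, 1.72 and 1.60 RPKM in sh-*Etv5*. The groups did not overlap but came close, with 1.87 RPKM as the lowest sh-NC value and 1.72 RPKM as the highest sh-*Etv5* value. The level fell by 21.0%, from 2.10 ± 0.201 to 1.65 ± 0.0602 RPKM (SD, n = 3 each; log2 fold change -0.22, SE 0.0781, limma adjusted p = 0.0247). That call was sensitive to leaving out libraries, and was kept in 9 of the 13 alternatives in which *Csf2rb2* was tested. It was lost without sh-NC replicate 2 (limma adjusted p = 0.0785), without sh-NC replicate 3 (0.0946), without sh-*Etv5* replicate 1 (0.0529) and without sh-*Etv5* replicate 3 (0.0585).

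The beta chains are near copies of each other. Their coding sequences were identical at 95.2% of 2628 aligned bases, and 12.3% of the 50-base windows of *Csf2rb* and 18.9% of those of *Csf2rb2* also occurred in other transcripts, mainly in the partner gene. How shared reads were assigned is not given in the sources used here, so the split between *Csf2rb* and *Csf2rb2* is uncertain. The microRNA genes inside them, *Mir7676-1* and *Mir7676-2*, had equal values in 6 of 6 libraries (6.97 ± 0.561 RPKM in sh-NC, 6.56 ± 1.10 RPKM in sh-*Etv5*, not called). The ratio of *Csf2rb* to *Csf2rb2* was 3.49 ± 0.308 in sh-NC and 3.28 ± 0.209 in sh-*Etv5*, and the groups overlapped (exact permutation test, two-sided p = 0.6).

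*Csf3r* encodes the G-CSF receptor, best known from neutrophils and their precursors, and lies at chr4:126024550-126044440 (plus strand). It measured 1.02, 0.808 and 0.887 RPKM in sh-NC and 2.04, 1.76 and 2.06 RPKM in sh-*Etv5*. Every sh-*Etv5* library was higher, at 1.96 ± 0.167 against 0.906 ± 0.108 RPKM (SD, n = 3 each), a ratio of 2.16. The log2 fold change was 0.63 (SE 0.0841, limma adjusted p = 3.99e-05). Since 1 sh-NC library reached 1 RPKM, this gene also passed the filter mainly through the sh-*Etv5* libraries. Over all its annotated transcripts, 10.7% of the 50-base windows also occurred in transcripts of other genes. Among 8 neutrophil markers, 7 were under 1 RPKM in every library and *S100a9*, *Ly6g* and *Elane* were listed at 0 throughout. The summed level of the 8 was 0.289 to 0.671 RPKM in sh-NC and 15.6 to 19.9 RPKM in sh-*Etv5*, nearly all of it *S100a8* (0.306 RPKM in sh-NC and 17.1 RPKM in sh-*Etv5* on average). All samples are labelled as the Raw264.7 line, and whether *Csf3r* and these markers changed in the same cells was not tested.

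**Figure D2:**
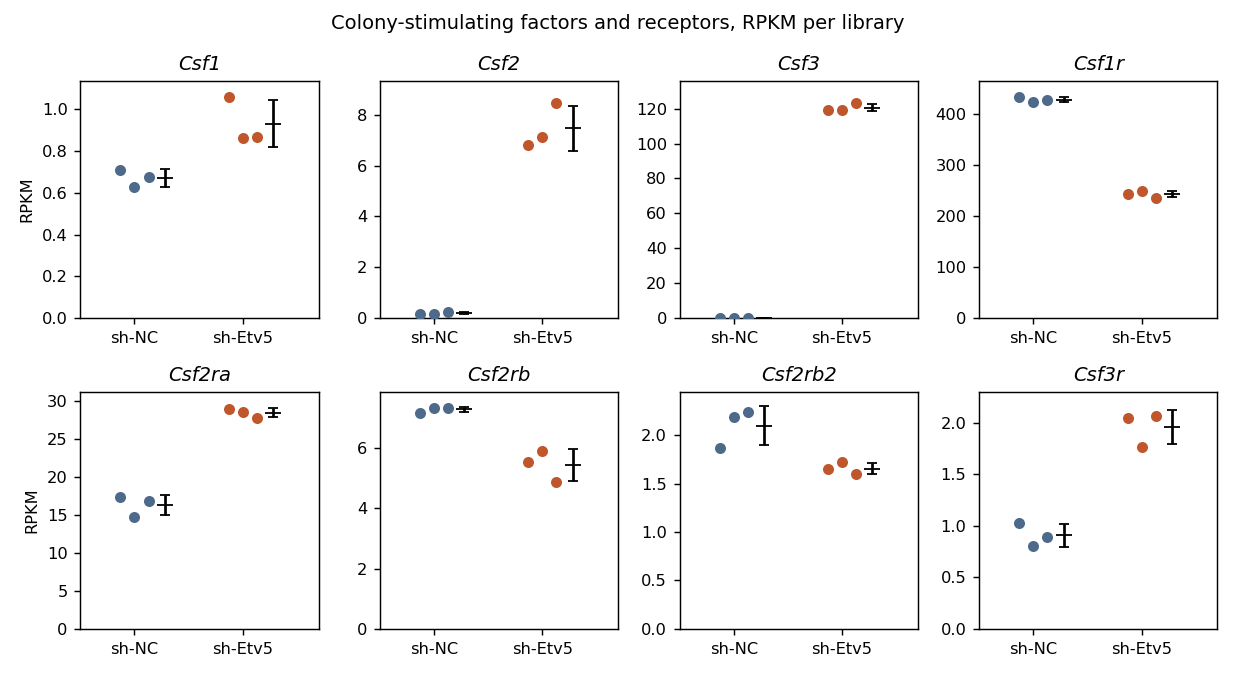
RPKM of each colony-stimulating factor and receptor gene in the 3 sh-NC (blue) and 3 sh-*Etv5* (red) libraries, on a linear axis from 0 that differs between panels, with the mean and SD at the right of each group. The groups do not overlap for any of the 8 genes, and the values run from 0 to 123 RPKM for *Csf3* and from 236 to 433 RPKM for *Csf1r*.

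Of the 7 genes tested, 4 were called higher and 3 lower in sh-*Etv5*. Over all genes tested, 74.3% were called, 33.3% as higher and 41.0% as lower, and the groups did not overlap for 76.4%. With so many genes called, and with 3 of the 4 higher genes admitted mainly by their sh-*Etv5* values, the number of calls is no result particular to the family. The sizes of change differed widely. A larger absolute log2 fold change than that of *Csf3* was seen in 0.0279% of tested genes, and than that of *Csf2* in 0.745%. For *Csf1r*, *Csf2ra* and *Csf3r* these shares were 14.1%, 15.7% and 21.8%. For *Csf2rb* and *Csf2rb2* they were 43.6% and 62.7%. The median log2 fold change of all tested genes was -0.05.

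**Figure D3:**
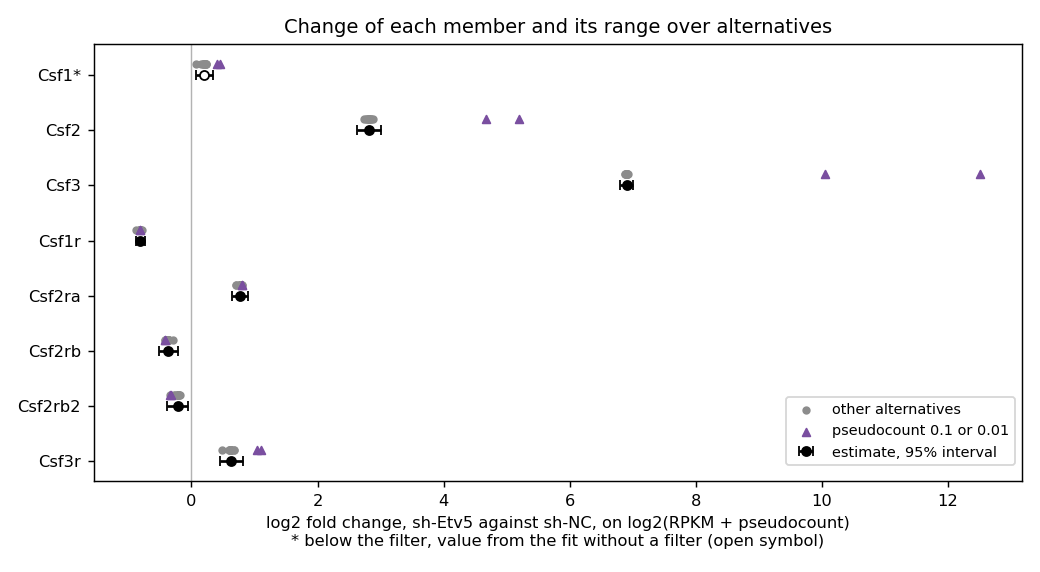
Log2 fold change (sh-*Etv5* against sh-NC) of each gene with its 95% interval (black) and its values under the other settings (grey), with smaller pseudocounts as purple triangles. No gene changes sign, the purple triangles of *Csf2* and *Csf3* lie far to the right of their estimates (up to 5.19 and 12.52), and the interval of *Csf2rb2* ends nearest to 0 among the genes that passed the filter.

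The order of levels within the family changed with the rise of the ligands. In sh-NC it ran from *Csf1r* over *Csf2ra*, *Csf2rb*, *Csf2rb2*, *Csf3r*, *Csf1* and *Csf2* down to *Csf3*, so that every receptor stood above every ligand. In sh-*Etv5* it ran from *Csf1r* over *Csf3*, *Csf2ra*, *Csf2*, *Csf2rb*, *Csf3r* and *Csf2rb2* down to *Csf1*. In neither order did neighbours overlap between their libraries. *Csf3* thus moved from the last place to the place after *Csf1r*, while *Csf1* ended last.

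The make-up of the receptor messages moved as well. *Csf1r* made up 94.2% ± 0.227 of the summed RPKM of the 5 receptor genes in sh-NC and 86.7% ± 0.179 in sh-*Etv5*. The share of *Csf2ra* was 3.58% ± 0.258 and 10.1% ± 0.190, and that of *Csf3r* was 0.199% ± 0.0213 and 0.697% ± 0.0748. The shares of *Csf2rb* (1.60% ± 0.0380 and 1.93% ± 0.137) and *Csf2rb2* (0.461% ± 0.0484 and 0.589% ± 0.00745) rose too. Both of these genes fell in RPKM, so a larger share is not a higher level. The ratio of *Csf1r* to *Csf2ra* was 26.4 ± 2.05 in sh-NC and 8.58 ± 0.179 in sh-*Etv5*. The ratio of *Csf2ra* to *Csf2rb*, the alpha and beta chains of the GM-CSF receptor, was 2.24 ± 0.205 and 5.25 ± 0.447 (all SD, n = 3 each). For each of these shares and ratios the groups did not overlap, and the exact permutation test gave p = 0.1, its smallest possible value (0.11 after Benjamini-Hochberg adjustment over the 11 ratios and shares computed).

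*Csf2ra* is shown with the 250 bases upstream of its RefSeq start (GRCm38.p6, chr19:61228419-61228668, minus strand), since it was the receptor that rose from the highest level and ETV5 belongs to the factors that read the ETS core GGAA. Capitals mark GAGGAA, a motif like that of the macrophage factor PU.1, and the last bases of the stretch lie within the first exon that GENCODE annotates.
Csf2ra: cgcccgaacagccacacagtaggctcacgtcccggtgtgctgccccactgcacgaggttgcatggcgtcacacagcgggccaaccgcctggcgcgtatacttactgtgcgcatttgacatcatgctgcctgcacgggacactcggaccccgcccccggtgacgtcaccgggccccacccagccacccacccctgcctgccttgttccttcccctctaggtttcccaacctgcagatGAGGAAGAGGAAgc
The motifs searched on both strands were the core GGAA, the longer GAGGAA that contains it, the AP-1 motif TGANTCA and the NF-kB motif. GGAA occurred 5 times in this stretch, and 2 of these were the GAGGAA copies starting 14 and 8 bases before the RefSeq start. Of 32851 promoters of the same length, 93.4% held GGAA, 23.3% held GAGGAA, 6.75% held TGANTCA and 7.25% held the NF-kB motif. The upstream stretch of *Csf2ra* held neither of the latter pair. That of *Csf1* held 1 NF-kB match and 3 copies of GGAA, 1 of them within that match. That of *Csf2* held 5 copies of GGAA. On the minus strand it ends at base 54249900, before the GENCODE start of *Csf2* at base 54249667, so the bases next to that start were not searched. The stretch of *Csf3r*, which rose, held 7 copies of GGAA, 1 GAGGAA and 1 NF-kB match, which includes 1 of the GGAA copies. GENCODE starts *Csf3r* at base 126024550, inside this stretch (126024409 to 126024658). The GAGGAA and several of the GGAA copies thus lie within the annotated gene. The stretch of *Csf2rb2*, which fell, held 2 copies of GGAA and 1 GAGGAA. Upstream stretches were searched for 5 of the 8 genes. No promoter entry was found for *Csf3* and *Csf2rb*, and *Csf1r* was left out of the search. A match is a description of letters, not of a bound site.

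The genes beside each family member were examined, the nearest 2 measured genes on either side. Of these 27 genes, 16 were under the filter and 11 were tested, of which 5 were called higher, 2 lower and 4 in no direction. Over all tested genes, 33.3% were called higher and 41.0% lower. The tested neighbours include *Mir7676-1*, *Mir7676-2* and *Mir6983*, which lie inside family members and are not separate from them. No measured gene was found on the higher side of *Csf2ra*. *Csf3* stood apart from its closest neighbours. *Med24*, 0.966 kb from it, measured 21.0 ± 0.630 RPKM in sh-NC and 20.9 ± 0.701 in sh-*Etv5* and was not called. *Psmd3*, 4.21 kb away, measured 87.3 ± 1.63 and 101 ± 3.63 RPKM (log2 fold change 0.21, limma adjusted p = 0.000326). Further off, the thyroid hormone receptor gene *Thra* rose from 1.64 ± 0.0623 to 5.85 ± 0.745 RPKM (log2 fold change 1.37, limma adjusted p = 7.11e-08).

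Around *Csf2* no other gene was measurably on. The cytokine gene *Il3*, 15.2 kb from it, was listed at 0 in all 6 libraries, and *Acsl6*, *P4ha2* and *4933405E24Rik* were under 0.1 RPKM in each. Beside *Csf1r*, the related kinase gene *Pdgfrb* was also under 0.1 RPKM in each library. *Mir6983*, which lies inside *Csf1r*, went from 8.48 ± 0.350 to 4.73 ± 0.370 RPKM, and its reads cannot be told apart from those of its host. Beside *Csf2rb2*, *Ncf4*, a subunit of the phagocyte NADPH oxidase, rose from 40.3 ± 1.17 to 67.6 ± 1.77 RPKM (log2 fold change 0.73, limma adjusted p = 1.58e-08), against the direction of both beta chains.

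**Figure D4:**
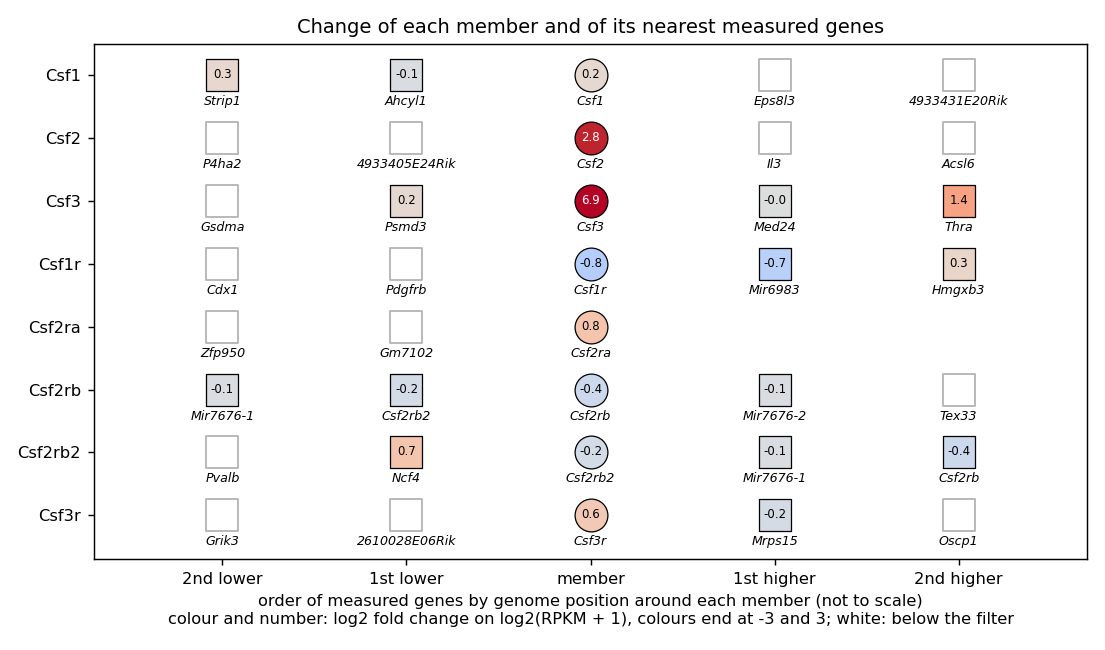
Log2 fold change of each family gene (circles) and of the nearest 2 measured genes on either side (squares), in genome order and not to scale, with white squares for genes under the filter and the *Csf1* value from the fit without a filter. *Csf3* (6.9) and *Csf2* (2.8) stand among neighbours between -0.0 and 1.4 or under the filter, and *Ncf4* (0.7) lies beside the falling beta chains.

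The genes most like each family member were named by the distance between log2(RPKM + 1) values over the 6 libraries. For *Csf3* these were *Urah* (distance 0.221), *Lcn2* (0.257) and *Ccl7* (0.656). *Lcn2*, the iron-carrier binding protein lipocalin, measured 0.0374 RPKM in sh-NC and 133 RPKM in sh-*Etv5* on average. For *Csf2* they were *Ccl12* (0.304), *Fam49a* (0.308) and *Pdpn* (0.430). The chemokine gene *Ccl12* measured 0.0903 and 7.86 RPKM. For *Csf1r* they were *Laptm5* (0.269), *Ly6e* (0.300) and *Hnrnpab* (0.396). For *Csf2ra* they included *Stambpl1* (0.193) and *Stat3* (0.196). For *Csf2rb* they were *Clasp1* (0.112), *Mtmr4* (0.131) and *Specc1l* (0.148), and for *Csf2rb2* *Zfp729b* (0.148), *Pfkfb2* (0.153) and *2610002M06Rik* (0.159). For *Csf3r* they were *Frmd6* (0.226), *Gsdme* (0.230) and *Tmem170* (0.234). The measure ranks likeness of level and change together and says nothing of shared control.

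Other ligands and chains that pair with these receptors were at or near 0 in these cells. *Il3*, *Il3ra* and *Il5ra* were listed at 0 in every library and *Il5* was under 0.1 RPKM on average in both groups. *Il34*, the other ligand of *Csf1r*, averaged 0.0780 RPKM in sh-NC and 0.183 RPKM in sh-*Etv5*. All 5 of these genes were under the filter.

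Proteins that carry the receptor signal were mostly expressed. Of 24 signal transducers, 22 were tested, with 11 higher, 8 lower and 3 not called, and a median log2 fold change of 0.13. For comparison with this and the following lists, 33.3% of all tested genes were called higher and 41.0% lower. The Src-family kinase gene *Fgr* fell from 6.09 ± 0.578 to 0.541 ± 0.127 RPKM (log2 fold change -2.20, limma adjusted p = 2.29e-09), and it passed the filter only through the sh-NC libraries. *Gab2*, a docking protein below these receptors, rose from 4.38 ± 0.336 to 10.2 ± 0.548 RPKM (log2 fold change 1.06). *Stat3*, which G-CSF activates, rose from 15.7 ± 0.260 to 29.4 ± 0.515 RPKM (log2 fold change 0.87). Of the STAT5 genes, whose products GM-CSF activates, *Stat5b* was not called (log2 fold change -0.01), whereas *Stat5a*, named after its values were seen, fell from 8.87 ± 0.232 to 7.53 ± 0.698 RPKM (log2 fold change -0.21, limma adjusted p = 0.0115). Also not called were *Tyk2* (0.11) and *Grb2* (-0.08).

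Inhibitors of receptor signalling were led by *Socs3*. Of 14 such brakes, 11 were tested, with 4 higher, 5 lower and 2 not called, and a median log2 fold change of -0.04. *Socs3*, which blocks the G-CSF receptor, measured 1.57, 1.99 and 1.67 RPKM in sh-NC and 72.2, 72.1 and 68.8 RPKM in sh-*Etv5*. The groups lay far apart (log2 fold change 4.72, limma adjusted p = 2.14e-13). *Cbl*, the ubiquitin ligase that acts on the M-CSF receptor, fell from 18.5 ± 0.724 to 11.0 ± 1.99 RPKM (log2 fold change -0.71). The phosphatase gene *Ptprj* rose from 11.4 ± 0.350 to 17.4 ± 1.43 RPKM (log2 fold change 0.57), and *Socs1* (0.09) and *Sla* (-0.04) were not called.

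Genes known to follow stimulation by these factors moved in both directions. All 11 were tested, with 6 higher, 3 lower and 2 not called, and a median log2 fold change of 0.60. *Myc* rose from 0.341 ± 0.0394 to 12.0 ± 0.194 RPKM (log2 fold change 3.27), and it passed the filter only through the sh-*Etv5* libraries. *Osm*, which encodes oncostatin M, rose from 2.78 ± 0.409 to 19.8 ± 1.15 RPKM (log2 fold change 2.47), and the kinase gene *Pim1* rose from 7.31 ± 0.239 to 42.9 ± 2.16 RPKM (log2 fold change 2.40). *Mcl1* (log2 fold change -0.01) and *Egr1* (-0.03) were not called. *Egr2* and *Plau*, described here after their values were seen, fell from 3.15 ± 0.368 to 0.392 ± 0.153 RPKM and from 187 ± 1.001 to 93.4 ± 1.997 RPKM, and *Egr2* passed the filter only through the sh-NC libraries.

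Transcription factors of the myeloid lineage, some of which are known to act at the *Csf1r* locus, were split. Of 10, 9 were tested, with 4 higher, 4 lower and 1 not called, and a median log2 fold change of 0.15. *Mitf* fell from 7.52 ± 0.0379 to 2.12 ± 0.109 RPKM (log2 fold change -1.45), *Cebpa* from 17.3 ± 1.01 to 6.29 ± 0.523 RPKM (-1.33) and *Cbfb* from 63.4 ± 2.09 to 32.8 ± 1.87 RPKM (-0.93). *Spi1*, which encodes PU.1 and was added after its values were seen, measured 163 ± 9.52 and 181 ± 6.86 RPKM (log2 fold change 0.15, limma adjusted p = 0.0101), and this call was lost without a filter (limma adjusted p = 0.0565). The number of these factors called higher was 3 without a filter and 3 with libraries scaled to the same sum.

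Of 8 mRNA decay and stability factors, all were tested, with 2 higher, 5 lower and 1 not called (*Rc3h1*, log2 fold change -0.03). The median log2 fold change was -0.31. The decay factor genes *Zfp36*, which encodes tristetraprolin, and *Zc3h12a*, which encodes regnase-1, were those that rose. *Zfp36* measured 19.0 ± 0.588 RPKM in sh-NC and 107 ± 2.51 RPKM in sh-*Etv5* (log2 fold change 2.43, limma adjusted p = 1.10e-12). *Zc3h12a* measured 4.02 ± 0.356 and 24.0 ± 0.410 RPKM (log2 fold change 2.32), and *Zfp36l2* fell from 44.4 ± 0.895 to 24.6 ± 0.876 RPKM (-0.83). The sh-*Etv5* libraries thus held the higher values of *Zfp36* and of *Csf2* and *Csf3*, whose AU-rich stretches are printed above.

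The proteases known to release the M-CSF receptor from the cell surface also changed at the RNA level. *Adam17* fell from 49.6 ± 0.558 to 33.2 ± 0.313 RPKM (log2 fold change -0.57) and *Adam10* from 47.5 ± 1.34 to 29.0 ± 1.32 RPKM (-0.69). *Rhbdf2*, which encodes a partner that ADAM17 needs to reach the surface, rose from 22.4 ± 0.305 to 51.5 ± 2.47 RPKM (log2 fold change 1.17). These were the 3 genes of that list, with a median of -0.57. Over all 7 lists, 64 of 75 genes were tested, with 28 higher, 27 lower and 9 not called. That is 85.9% called, against 74.3% of all tested genes. The lists were chosen with earlier results of these data known, and no set test was run. The share is therefore not read as a result about the lists. Of these 64, 3 were under 1 RPKM in at least 1 library.

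**Figure D5:**
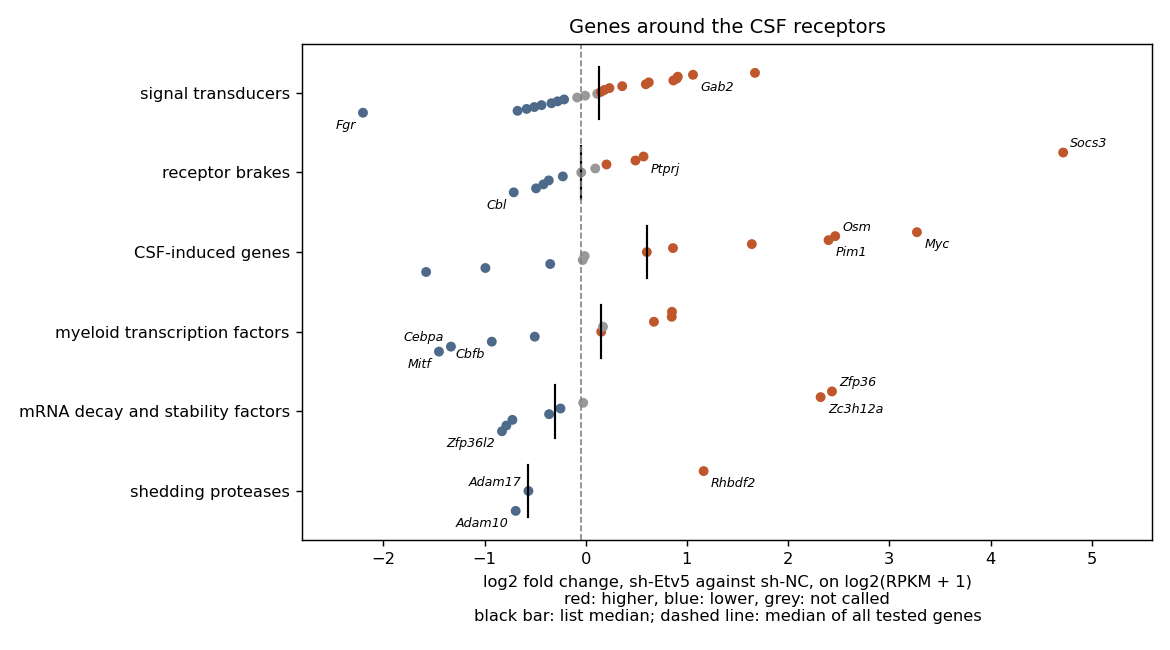
Log2 fold change of every tested gene in the lists around the receptors (red higher, blue lower, grey not called), with the list median as a black bar, the median of all tested genes (-0.05) as a dashed line and several of the largest changes labelled. Each list holds genes on both sides of 0, and *Socs3* (4.72), *Myc* (3.27), *Osm* (2.47), *Zfp36* (2.43) and *Pim1* (2.40) lie farthest to the right.

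The libraries were checked as a whole. Library sums were 320462 to 340257 RPKM. The correlation of log2(RPKM + 1) across tested genes, which are not independent replicates, was 0.996 to 0.997 within groups and 0.913 to 0.915 between them. Of 10 macrophage markers, 9 reached 1 RPKM in every library and *Mertk* was near 0, and their summed level was 4531 to 4647 RPKM in sh-NC and 3760 to 3949 RPKM in sh-*Etv5*. Most of that sum was *Lyz2* (2834 RPKM in sh-NC and 2041 RPKM in sh-*Etv5* on average), and the 9 tested moved in both directions, with 4 higher, 4 lower and 1 not called. *Itgam* rose from 33.8 ± 0.746 to 127 ± 7.21 RPKM and *Adgre1* from 2.60 ± 0.119 to 11.3 ± 0.757 RPKM. All 5 markers each of dendritic cells, fibroblasts and lymphocytes were under 1 RPKM in every library. Their summed levels were 0.685 to 1.03, 0.0112 to 0.0222 and 0.0622 to 0.223 RPKM in sh-NC, and 0.340 to 0.387, 0.764 to 1.10 and 0.0289 to 0.367 RPKM in sh-*Etv5*, in that order.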

How the data were processed

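Polyadenylated RNA of 3 sh-NC and 3 sh-*Etv5* libraries was sequenced from an Illumina TruSeq RNA v2 kit. The authors deposited 1 RPKM value per gene symbol and library. The genome build mm10 is named in the submitters' processing notes, and the aligner, the annotation and the treatment of shared reads are not given in the sources used here. Low values (under 0.1 RPKM) were not multiples of a common step (the commonest ratio held for 3.12% to 4.59% of them), so whole reads were not recovered and depth is unknown. RPKM of a gene also depends on what other genes take of the library.

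The family and the gene lists were chosen with earlier results of these data known. Groups came from the sample titles. Genes with at least 1 RPKM in at least 3 of 6 libraries were tested on log2(RPKM + 1) by limma 3.58.1 under R 4.3.3, with an eBayes trend, two-sided and without covariates, and Benjamini-Hochberg adjustment ran over all 10738 of them. *Csf1*, under the filter, was compared with an exact permutation test (SciPy 1.17.1). The code of the test was checked on simulated data in which few genes changed, unlike here. That check does not give the error of the present calls.

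Genes named were the 8 members, *Etv5*, their neighbours, the 3 genes nearest in pattern, and in each list the 3 largest changes together with genes in no direction where there were 3 or fewer. Exceptions are marked in the text, and a few genes that the rule covers are not reported here. The lists were other ligands and chains, signal transducers, receptor brakes, CSF-induced genes, myeloid transcription factors, mRNA decay and stability factors, shedding proteases and cell type markers. Coordinates and 3′ UTRs came from GENCODE M21 on GRCm38, matched by symbol, and promoters from RefSeq on GRCm38.p6. Upstream stretches that were not matched, or that overlap annotated exons by more than a few bases, were not printed.

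Alternatives were smaller pseudocounts (0.1 or 0.01), a fit on all genes without filter, a filter at a mean of 5 RPKM, equal library sums, quantile normalization, no trend, the replicate number as a block, and each library left out. Alternatives for *Csf1* combining no filter with each of these were added after the data were seen.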

Additional observations from a re-analysis of the deposited data

How the results depend on the processing

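No value of the family changed sign under the 14 alternatives. *Csf3*, *Csf1r*, *Csf2ra* and *Csf2rb* kept their calls under all of them, and *Csf2* and *Csf3r* under each in which they were tested. With a mean RPKM of at least 5 required, the genes called higher dropped to 2, since *Csf2* and *Csf3r* then left the test. *Csf2rb2*, which that filter also removed, ranged from -0.27 to -0.19 when 1 library was left out. *Csf1*, in the fits without a filter, had a log2 fold change of 0.41 with a pseudocount of 0.1 (limma adjusted p = 0.0579), 0.46 with 0.01 (0.0757) and 0.0720 with quantile normalization (0.384), and 0.16 to 0.23 with 1 library left out, where its call was lost without sh-NC replicate 2 (0.19, limma adjusted p = 0.0740) or sh-NC replicate 3 (0.21, limma adjusted p = 0.0646). The cause was not tested. Leaving out 1 library left 4 genes of the family called higher and 2 to 3 called lower. Of 196 counts over the lists, 195 stayed within 1.5 times, and *Il34* was called higher without a filter. Samples with the same replicate number did not deviate together (correlations of -0.0710 to 0.0739, 0 of 3 pairs over 0.1), so the number was not read as a pairing. With the number as a replicate block, 3539 genes were called higher and 4361 lower, against 3575 and 4399, and all 7 tested members kept their call (limma adjusted p from 5.05e-11 to 0.0388). Since the depth is unknown, the values under 1 RPKM of *Csf1*, *Csf2* and *Csf3* in sh-NC have no counting error. Without strand, overlapping genes share reads. Groups of 3 libraries are too small to single out a library by its gap to the others.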
